A study of Mus musculus with 90 samples.

Results

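The genes described here are Pou5f1, Sox2, Nanog, Sall4, Lin28a and Utf1, 6 genes by name out of 24961 in the embryoid body table and 24984 in the neural table. All 6 passed the filter on low counts in every fit, and they were followed in all 90 libraries, 30 groups of 3. The cells were mouse J1 embryonic stem cells (ESCs), grown with LIF on gelatin with embryonic fibroblast feeders, which were removed before collection. The 5 lines carried wild-type CBX7 (WT), CBX7 with the compaction and phase separation domain of CBX2 (CaPS), CBX7 with a mutated form of that domain (mCaPS), a CBX7 knockout (KO) or a line named CBX7-CaPS-R, whose R the labels do not spell out. CBX7 and CBX2 are subunits of Polycomb repressive complex 1, which keeps developmental genes silent. Each line was taken as ESCs (day 0) and then either as embryoid bodies, formed in hanging drops and moved to suspension, at days 6 and 10, or as neural cultures at days 6 and 8. Neural cultures were aggregates without LIF that received retinoic acid from day 4. Both series have their own day 0 libraries. The labels do not say whether libraries of a group came from separate cultures or whether a line is 1 clone, so p-values measure the spread between these libraries, which may be technical.

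OCT4 (encoded by Pou5f1) and SOX2 bind DNA side by side at composite sites and, with the homeodomain factor NANOG, hold the self-renewing state of ESCs. SALL4 is a zinc finger partner of this circuit, LIN28A is an RNA-binding protein that blocks maturation of let-7 microRNAs, and UTF1 is a chromatin-bound factor of undifferentiated cells. SOX2 is also a factor of neural progenitors, so its transcript can persist when ESCs become neural.

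Sequences just upstream of the start were available for 5 of the 6 genes, from RefSeq on GRCm38.p6; they are shown because the circuit is known for octamer and SOX sites. The 250 bases before the start were searched on both strands for the octamer core ATGCAAA, the SOX core CATTGT and the nuclear receptor half-site AGGTCA, none of which contains another. Capitals mark the matches, read on the strand of the gene.
Pou5f1, chr17:35505959-35506031, plus strand: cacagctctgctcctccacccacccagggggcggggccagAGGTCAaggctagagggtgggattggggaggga
Sox2, chr3:34649745-34649942, plus strand: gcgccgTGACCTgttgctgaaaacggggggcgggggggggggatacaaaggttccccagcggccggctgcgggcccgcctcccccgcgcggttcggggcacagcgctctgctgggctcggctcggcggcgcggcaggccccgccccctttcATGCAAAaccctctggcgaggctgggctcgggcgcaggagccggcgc
Nanog, chr6:122707239-122707467, plus strand: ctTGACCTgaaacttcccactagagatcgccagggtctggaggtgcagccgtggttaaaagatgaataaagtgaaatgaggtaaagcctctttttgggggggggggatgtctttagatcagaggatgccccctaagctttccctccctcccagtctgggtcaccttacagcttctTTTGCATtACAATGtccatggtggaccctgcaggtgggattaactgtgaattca
Lin28a, chr4:134018867-134018952, minus strand: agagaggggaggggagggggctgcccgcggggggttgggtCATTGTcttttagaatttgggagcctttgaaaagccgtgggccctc

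In the Nanog window the octamer core and the SOX core lie 1 base apart, both on the minus strand relative to the gene, at positions -75 to -69 and -67 to -62 counted from the start. The 2 cores lay at most 1 base apart, on any strand and in any order, in 5 of 32851 promoters of the same length, 0.0152%. The octamer core alone was in 4.12% of them, among them Sox2 (-99 to -93), and the SOX core in 10.7%, among them Lin28a (-96 to -91). Both cores occurred together, at any distance, in 0.642%. The half-site was in 14% of promoters, among them Pou5f1 (-33 to -28), Sox2 (-244 to -239) and Nanog (-248 to -243). The Utf1 window held none of these letters. A match is a description of letters and not of binding.

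On mm10 the counted gene models are Pou5f1 at chr17:35506032-35510777 (plus strand), Sox2 at chr3:34649995-34652460 (plus, 1 exon), Nanog at chr6:122707489-122714633 (plus), Sall4 at chr2:168748332-168767201 (minus), Lin28a at chr4:134003330-134018816 (minus) and Utf1 at chr7:139943856-139945112 (plus). Sox2 lies inside the long noncoding gene Sox2ot. Pou5f1 and Nanog are known to have processed copies elsewhere in the genome. How the counting treated strand and shared reads is not given in the sources used here, so the split of such reads is uncertain.

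Totals ran from 10.6 M to 55.9 M counts per library in the embryoid body table and from 11.8 M to 59.3 M in the neural table. The deposited CaPS-R tables, which were held here only in part, gave 11.04 M to 110 M. Ribosomal precursor Rn45s took 2.73% to 88.7% of the counts, the highest in mCaPS ESC replicate 3 of the embryoid body series. In that series, 6 libraries differed from the rest, the ones numbered 1 in WT and in CaPS: 42.1% to 43.5% of their counts between 1 and 20 were even, against 73.5% to 94.1% in the other 30, and they held 5.11 to 13.2 CPM of Gapdh outside Rn45s, against 18.6 to 623 CPM. Calls that are lost or gained without these libraries are given beside the results. CaPS-R is in tables of its own, so its line and its table cannot be told apart.

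The targeted gene, Cbx7, did not separate the line labelled KO from WT. ESCs of the embryoid body series had 76.8, 132 and 126 CPM of Cbx7 (counts-per-million after scaling) in WT and 87.8, 111 and 91.8 CPM in the line labelled KO. The log2 difference was -0.20 ± 0.53 (SE; adjusted p = 0.970), and in the neural ESCs it was -0.47 ± 0.32 (adjusted p = 0.413). No day passed the test at an adjusted p of 0.05, the threshold used throughout. A count over the whole gene does not see a deletion that leaves a transcript, and directions drawn from the line labelled KO rest on its label. CaPS had more Cbx7 transcript than mCaPS on embryoid body day 10 (log2 2.60, adjusted p = 0.00636) and on neural days 6 (log2 1.89, adjusted p = 0.0293) and 8 (log2 2.11, adjusted p = 0.00495).

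In WT ESCs, Pou5f1 was the most abundant of the 6 per length. Its level per kilobase of exon was 421 to 454 CPM in the embryoid body series and 467 to 797 CPM in the neural series. No library of another gene reached it in either series. In the embryoid body ESCs the other genes overlapped one another, with 92.6 to 174 CPM per kilobase for Sox2, 41.0 to 273 for Utf1, 81.9 to 111 for Lin28a, 68.3 to 106 for Nanog and 48.6 to 126 for Sall4. Neural-series ESCs put Utf1 next to Pou5f1, at 188 to 328 CPM per kilobase. Sall4 (119 to 171), Lin28a (119 to 146) and Sox2 (118 to 137) overlapped, and Nanog was lowest at 91.4 to 106. By the end of differentiation the order had changed, and it differed between embryoid body day 10 and neural day 8. On embryoid body day 10, Lin28a led at 97.5 to 138 CPM per kilobase, followed by Pou5f1 (25.5 to 82.9) and Sall4 (25.4 to 77.3), which overlapped, with Sox2 at 14.7 to 32.0, Nanog at 3.97 to 22.9 and Utf1 at 0.729 to 31.1. Neural day 8 left Sox2 on top at 68.4 to 108 CPM per kilobase, clear of Sall4 (7.90 to 21.4) and Lin28a (6.67 to 16.5), which overlapped. Pou5f1, Utf1 and Nanog were lowest there and overlapped, all below 5.63 CPM per kilobase.

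**Figure D1:**
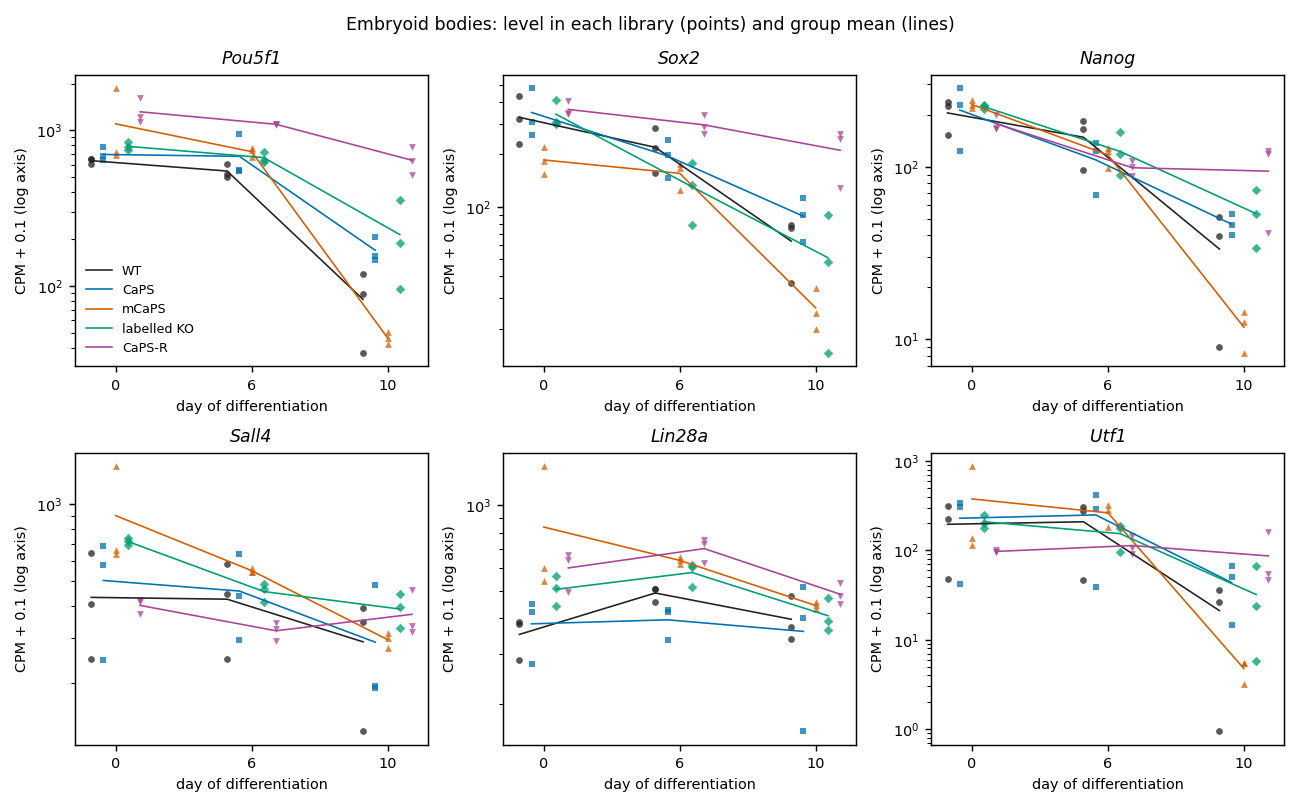
Level of each gene in every embryoid body library, as CPM + 0.1 on a log axis, against day of differentiation (0, 6 and 10, evenly spaced). Points are libraries, lines join the means of 3 libraries, lines of cells are offset sideways, and CaPS-R comes from a joint scaling over shared genes; at day 10 the mCaPS points (triangles) of Pou5f1 lie between 42.1 and 50.5 CPM and those of CaPS-R between 514 and 778 CPM.

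In WT embryoid bodies 4 of the 6 transcripts fell by day 10, and none had passed the test by day 6. Pou5f1 stood at 655, 608 and 650 CPM in ESCs, at 527, 503 and 611 CPM on day 6, and at 36.8, 88.1 and 120 CPM on day 10. All day 10 libraries were below all earlier ones, and the log2 change was -2.97 ± 0.40 (adjusted p = 3.87e-06). Whether fewer cells held the transcript or each cell held less cannot be told apart in bulk samples. Nanog went from 153, 224 and 238 CPM to 8.90, 39.5 and 51.3 CPM on day 10 (log2 -2.62 ± 0.42, adjusted p = 3.85e-05). Sox2 went from 430, 319 and 228 CPM to 36.3, 78.9 and 74.98 CPM (log2 -2.36 ± 0.44, adjusted p = 0.000185). The groups did not overlap for either gene. Utf1 was the least even between libraries, at 47.5, 317 and 222 CPM in ESCs and 0.845, 36.05 and 26.3 CPM on day 10. Its log2 change was -3.21 ± 1.05 (adjusted p = 0.0206), and the adjusted p was 0.0809 without ESC replicate 2, 0.0680 without day 10 replicate 1 and 0.0861 in a fit of only the groups compared, which takes the spread from these libraries alone.

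Sall4 and Lin28a did not pass. Sall4 had 247, 642 and 406 CPM in WT ESCs and 129, 345 and 392 CPM on day 10 (log2 -0.58 ± 0.42, adjusted p = 0.324). Lin28a had 388, 381 and 285 CPM and then 372, 339 and 480 CPM (log2 0.18 ± 0.30, adjusted p = 0.707). Both groups overlapped for both genes. Thus 4 of 6 genes fell in WT by day 10, where 29.2% of all 17791 genes tested were called in either direction. By day 6 none of the 6 was called by edgeR, none had an unadjusted p below 0.05 and none was called by DESeq2, against 7.88% of all genes. Feeder markers also moved over this time: 8 of 14 fell and 1 rose, with a summed level of 689 to 5377 CPM in WT ESCs and 1002 to 2481 CPM on day 10, and their part in the changes was not tested. Without the libraries numbered 1 the 4 genes still passed, with adjusted p of 0.00019 for Pou5f1, 0.00905 for Sox2, 4.19e-05 for Nanog and 0.00656 for Utf1.

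Pou5f1 fell by day 10 in the other 4 lines too. In CaPS, Pou5f1 (log2 -2.05 ± 0.38), Sox2 (-1.98 ± 0.43) and Nanog (-2.20 ± 0.42) fell by day 10, 3 of 6 genes against 26.7% of all genes. Utf1 in CaPS (log2 -2.39 ± 1.01, adjusted p = 0.0782) did not pass in this fit. With replicate numbers as a block, which pair these samples, it did (log2 -2.15, adjusted p = 0.00387). Without the libraries numbered 1, both Utf1 (log2 -2.49, adjusted p = 0.0226) and Sall4 (log2 -0.93, adjusted p = 0.0497) passed in CaPS. Leaving out only CaPS ESC replicate 1 gave Utf1 an adjusted p of 0.0481. At day 6 none of the 6 was called in CaPS by edgeR or DESeq2, and 1, Nanog, had an unadjusted p below 0.05, against 6.01% of all genes called. Without the libraries numbered 1, Nanog fell by day 6 (log2 -1.36, adjusted p = 0.0128, against -0.96 and 0.167 with them).

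All 6 genes fell in mCaPS by day 10, against 36.3% of all genes. Pou5f1 ended at 50.5, 45.8 and 42.1 CPM from 696, 729 and 1878 CPM in ESCs (log2 -4.58 ± 0.43, adjusted p = 2.67e-08). Nanog ended at 14.2, 12.5 and 8.22 CPM (log2 -4.30 ± 0.46, adjusted p = 1.36e-07), and Utf1 at 5.43, 3.07 and 5.45 CPM (log2 -6.33 ± 1.21, adjusted p = 0.000189). Sox2 fell by 2.82 on the log2 scale. The day 10 libraries of these genes lay close together and below every mCaPS ESC library. Sall4 (log2 -1.61 ± 0.43, adjusted p = 0.00418) and Lin28a (log2 -0.91 ± 0.31, adjusted p = 0.0197) fell as well, but they rest in part on ESC replicate 3, the library with 88.7% Rn45s. That library held 1410 CPM of Sall4 and 1369 CPM of Lin28a, against 661 and 636 CPM of Sall4 and 599 and 541 CPM of Lin28a in the other 2. It also had the highest summed level of the 14 feeder markers, 11724 CPM against 3576 and 2821 CPM, whose part in these changes was not tested. Without it, Sall4 changed by -1.16 (adjusted p = 0.0458), Lin28a did not pass (log2 -0.38, adjusted p = 0.306), and Pou5f1 (-3.97) and Utf1 (-4.78) still fell. Lin28a also missed the threshold without day 10 replicate 1 (adjusted p = 0.0610) or replicate 2 (adjusted p = 0.0533), and in the fit of only the groups compared (0.102). At day 6 no member was called in mCaPS by edgeR or DESeq2, and 1, Nanog, had an unadjusted p below 0.05 (log2 -0.97, adjusted p = 0.120), against 10.7% of all genes called. Nanog passed at day 6 with only the groups compared (adjusted p = 0.0258) and without the libraries numbered 1 of the other lines (0.0129).

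In the line labelled KO, Pou5f1 fell to 95.6, 187 and 358 CPM by day 10 (log2 -1.89 ± 0.38, adjusted p = 0.000546). Sox2 fell further, to 14.4, 48.4 and 90.0 CPM (log2 -2.74 ± 0.45, adjusted p = 4.93e-05), and Nanog fell by 2.06 on the log2 scale. Those 3 of 6 compare with 25.3% of all genes. Utf1 was at the threshold (log2 -2.71 ± 1.02, adjusted p = 0.0504), and it passed without day 10 replicate 3 (log2 -3.81, adjusted p = 0.0256) and in the fit with a replicate block (log2 -3.27, adjusted p = 0.0271). It also passed with only the groups compared (0.0349), without the libraries numbered 1 of the other lines (0.00235), with RLE size factors (0.0483), with Rn45s left out (0.0494) and by DESeq2 (0.0229). Sall4 (log2 -0.88 ± 0.42, adjusted p = 0.128) passed with the block (log2 -0.89, adjusted p = 0.00326), with only the groups compared (0.00234) and without the libraries numbered 1 of the other lines (adjusted p = 0.0176). At day 6, Sox2 was the 1 gene called, at 179, 78.8 and 133 CPM from 300, 308 and 409 CPM (log2 -1.38 ± 0.43, adjusted p = 0.0430), against 7.25% of all genes. That call was lost without any of 5 of its 6 libraries, with adjusted p from 0.0585 (without ESC replicate 1) over 0.0946 (ESC replicate 2), 0.115 (day 6 replicate 3) and 0.169 (ESC replicate 3) to 0.235 (day 6 replicate 2). Nanog did not pass at day 6 (log2 -0.86, adjusted p = 0.224), but it did with only the groups compared (0.0157) and without the libraries numbered 1 of the other lines (0.0341). Sall4 (log2 -0.65, adjusted p = 0.429) passed at day 6 with only the groups compared (0.00444).

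CaPS-R had the highest Pou5f1 on day 10; its levels come from a joint scaling with the other lines. The Pou5f1 level was 1611, 1126 and 1211 CPM in ESCs, 1091, 1105 and 1085 CPM on day 6 and 633, 778 and 514 CPM on day 10. The day 10 change was -1.04 ± 0.34 on the log2 scale (adjusted p = 0.0296), the 1 call among 6 genes, against 20.1% of all genes. It was lost without ESC replicate 1 (adjusted p = 0.119), day 10 replicate 1 (0.0663) or day 10 replicate 3 (0.114). Sox2 (log2 -0.78, adjusted p = 0.158), Nanog (-0.91, adjusted p = 0.103) and Utf1 (-0.17, adjusted p = 0.927) did not pass. Nanog passed without the libraries numbered 1 of WT and CaPS (log2 -0.85, adjusted p = 0.0285). By day 6 no member was called in CaPS-R by edgeR or DESeq2, and 1, Nanog, had an unadjusted p below 0.05 (log2 -0.85, adjusted p = 0.185), against 10.7% of all genes called. With only the groups compared, Nanog (adjusted p = 0.00164) and Sall4 (0.0406) passed at day 6, and Nanog also did without the libraries numbered 1 (0.0424).

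On embryoid body day 10 the lines were compared directly. CaPS-R had more Pou5f1 (log2 2.92 ± 0.37, adjusted p = 3.34e-07), more Sox2 (1.68 ± 0.40, adjusted p = 0.00337) and more Nanog (1.45 ± 0.41, adjusted p = 0.0121) than WT, 3 of 6 against 17.3% of the 15379 genes tested. In the joint scaling the 3 WT libraries had 38.0, 91.9 and 124 CPM of Pou5f1, where CaPS-R had at least 514 CPM. Sox2 was at 37.4, 82.3 and 78.0 CPM in WT and at 260, 127 and 245 CPM in CaPS-R, again without overlap. For Nanog the groups overlapped, with 9.18, 41.2 and 53.3 CPM in WT and 123, 41.5 and 118 CPM in CaPS-R. The Nanog call was lost without WT replicate 1 (log2 1.00, adjusted p = 0.0871) or CaPS-R replicate 1 (adjusted p = 0.0583), and with only the groups compared (0.144). Without the libraries numbered 1 of WT and CaPS on every day, the differences were 2.61 for Pou5f1 (adjusted p = 1.52e-05), 1.43 for Sox2 (adjusted p = 0.0215) and 1.03 for Nanog (adjusted p = 0.0317). Utf1 was at 45.9, 54.5 and 159 CPM in CaPS-R (log2 1.98 ± 0.92, adjusted p = 0.136).

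CaPS-R also showed other markers on that day, whose part in these differences was not tested. Of 12 mesoderm and heart markers, 8 were lower and none higher than in WT (median log2 -2.66, all genes -0.08), with a summed level of 235 to 411 CPM, and of 7 endoderm markers 2 were lower. Of 8 germ cell markers 4 were higher. Of 14 feeder markers 4 were lower and none higher (median log2 -1.78), and of 12 neural progenitor markers 2 were lower and none higher. None of 9 neuron markers passed. Before day 10 no member was called between CaPS-R and WT by edgeR over all groups. With only the groups compared, Pou5f1 was higher in CaPS-R in ESCs (log2 1.03, adjusted p = 0.0487) and on day 6 (0.95, adjusted p = 0.00640). Over all groups, Pou5f1 had a log2 difference of 0.99 ± 0.34 in ESCs (adjusted p = 0.0595) and 0.94 ± 0.34 on day 6 (adjusted p = 0.0818), and Lin28a 0.73 in ESCs (adjusted p = 0.0903), where 9.70% and 8.86% of all genes were called. Over the 3 days, 7 of 18 results had an unadjusted p below 0.05 and DESeq2 called 4. The change to day 10 itself, set against that of WT, gave no call among the 6 by edgeR (0.624% of all genes). The closest was Pou5f1 at 1.93 ± 0.49 (adjusted p = 0.0515), 4 of 6 had an unadjusted p below 0.05 and DESeq2 called 1. Scaling shifts the median of all genes between CaPS-R and WT by -0.12 in embryoid body ESCs, -0.18 in neural ESCs and -0.10 on neural day 6.

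CaPS and mCaPS, which by their labels differ in the mutation of the inserted domain, also separated on embryoid body day 10. Same-numbered libraries of that day deviated together in CaPS and WT (correlations 0.196 to 0.607) and not in CaPS and mCaPS (-0.0684 to -0.0332). Line, clone and set of libraries therefore cannot be told apart in this comparison. Pou5f1 was at 205, 155 and 147 CPM in CaPS and at 50.5, 45.8 and 42.1 CPM in mCaPS (log2 1.87 ± 0.38, adjusted p = 0.00390). Nanog was at 39.8, 46.0 and 53.1 CPM against 14.2, 12.5 and 8.22 CPM (log2 1.99 ± 0.42, adjusted p = 0.00489). Sox2 was at 89.4, 62.5 and 112 CPM against 34.3, 19.9 and 24.5 CPM (log2 1.75 ± 0.43, adjusted p = 0.0186). In each case all 3 CaPS libraries lay above all 3 mCaPS libraries. These 3 of 6 compare with 3.18% of all genes.

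Utf1 did not overlap either (14.3, 49.7 and 66.4 CPM in CaPS), with a log2 difference of 3.22 ± 1.05 and an adjusted p of 0.0982, or 0.00255 without the libraries numbered 1. Pou5f1 kept its call without any single library. The Sox2 call was lost without CaPS replicate 3 (adjusted p = 0.128), mCaPS replicate 2 (0.138) or mCaPS replicate 3 (0.103) and with only the groups compared (0.0596), and the Nanog call without mCaPS replicate 3 (0.0564). Sall4 (log2 -0.03) and Lin28a (-0.30) did not pass. Neuron markers were higher in CaPS too on that day, 8 of 10, and CaPS held more Cbx7 transcript, as given above; their part in the result was not tested. In ESCs and on day 6 no member was called by edgeR, where 0.793% and 1.12% of all genes were. Over the 3 days, 7 of 18 results had an unadjusted p below 0.05 and DESeq2 called 5.

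Few members of the other lines passed against WT in embryoid bodies. CaPS gave no call among 18 results by edgeR or DESeq2, and 1 unadjusted p below 0.05 (Pou5f1 on day 10, log2 1.05 ± 0.37, adjusted p = 0.610). These fits do not use the pairing of CaPS and WT by replicate number. With the replicate block no member was called either, and the shares of all genes given next are without it. The share of all genes called by edgeR was 0% in ESCs, 0% on day 6 and 0.00562% on day 10. Across all genes an unadjusted p below 0.05 was reached by 255 in ESCs and 971 on day 6, and DESeq2 called 1 and 78. The line labelled KO gave no call by edgeR, against 0.641%, 0.646% and 0.877% of all genes. Its nearest result was Pou5f1 on day 10 (log2 1.39 ± 0.38, adjusted p = 0.0819), the 1 unadjusted p below 0.05 and the 1 call by DESeq2. In mCaPS, Lin28a was higher in ESCs, 1 of 6 against 0.916% of all genes, with 599, 541 and 1369 CPM against 388, 381 and 285 CPM in WT (log2 1.25 ± 0.31, adjusted p = 0.0405).

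That Lin28a call rests on ESC replicate 3 of mCaPS (without it, log2 0.73, adjusted p = 0.399). It was also lost without WT replicate 1 (adjusted p = 0.102), replicate 2 (0.0950) or replicate 3 (0.198), without the libraries numbered 1 of all days (0.0577) and with only the groups compared (0.735). On days 6 and 10 no member passed in mCaPS by edgeR, against 0.540% and 0.708% of all genes. Nanog on day 10 had a log2 difference of -1.51 ± 0.41 (adjusted p = 0.102), and without the libraries numbered 1 it was -1.95 (adjusted p = 0.000145). Over the 3 days, 7 of 18 results in mCaPS had an unadjusted p below 0.05 and DESeq2 called 2. The change from ESCs to day 10, set against that of WT, gave no call by edgeR or DESeq2 in these 3 lines. The share of all genes called there was 0% in CaPS, 0% in mCaPS and 0.00562% in the line labelled KO. Unadjusted p-values below 0.05 numbered 0, 4 and 1 of 6. Across all genes they numbered 437 in CaPS and 933 in mCaPS, with 0 and 31 calls by DESeq2.

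**Figure D2:**
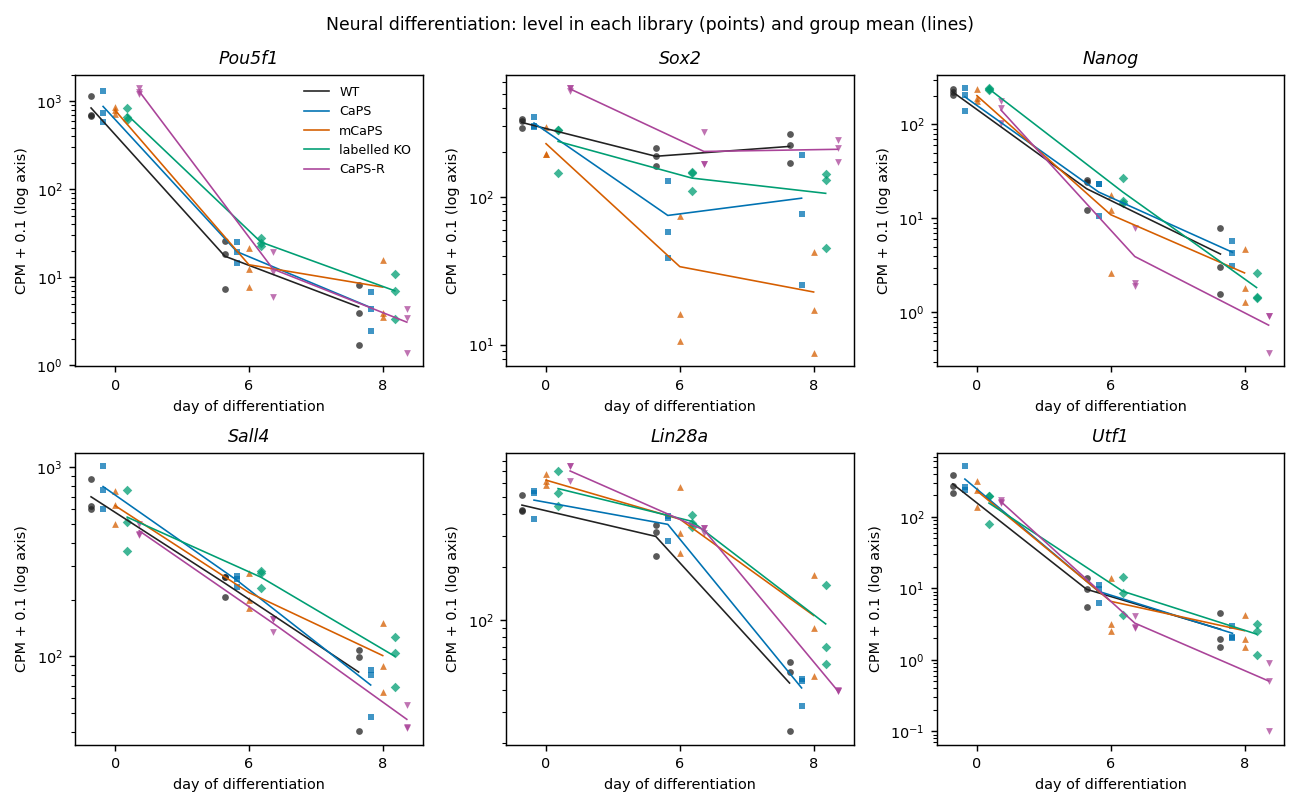
Level of each gene in every neural library, as CPM + 0.1 on a log axis, against day (0, 6 and 8, evenly spaced), drawn as for the embryoid bodies. Pou5f1, Nanog and Utf1 drop by day 6 in all 5 lines, while WT Sox2 (circles) stays between 160 and 339 CPM on all 3 days and mCaPS Sox2 (triangles) ends between 8.66 and 42.0 CPM.

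In WT neural cultures 4 of the 6 transcripts fell by day 6 and 5 by day 8, and Sox2 did not pass on either day when the spread was taken over all lines. WT Pou5f1 went from 1150, 673 and 696 CPM in ESCs to 7.29, 18.5 and 26.1 CPM on day 6 (log2 -5.60 ± 0.65, adjusted p = 1.79e-07) and to 1.602, 3.88 and 8.11 CPM on day 8 (log2 -7.55 ± 0.71, adjusted p = 2.63e-09). Utf1 fell by 4.91 on the log2 scale by day 6, to 5.33, 9.60 and 13.9 CPM. It fell by 6.82 by day 8, to 1.42, 1.88 and 4.43 CPM. Nanog fell to 12.2, 24.1 and 25.5 CPM (log2 -3.42 ± 0.56) and then to 1.48, 2.96 and 7.81 CPM (log2 -5.77 ± 0.63). For these genes each later day lay below all ESC libraries.

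Sall4 and Lin28a had smaller changes by day 6. Sall4 was at 865, 603 and 627 CPM in WT ESCs, at 206, 261 and 264 CPM on day 6 (log2 -1.52 ± 0.33, adjusted p = 0.000646) and at 40.1, 109 and 99.0 CPM on day 8 (log2 -3.08 ± 0.35, adjusted p = 5.2e-08). Lin28a was at 508, 413 and 421 CPM in ESCs and at 230, 315 and 347 CPM on day 6, which did not pass (log2 -0.59 ± 0.38, adjusted p = 0.223; 0.0463 with only the groups compared). By day 8 it had dropped to 23.2, 57.5 and 50.3 CPM (log2 -3.36 ± 0.41, adjusted p = 1.76e-07). Sox2 was at 291, 339 and 326 CPM in ESCs, 190, 214 and 160 CPM on day 6 and 266, 169 and 223 CPM on day 8. It did not pass on day 6 (log2 -0.76 ± 0.61, adjusted p = 0.337) or day 8 (log2 -0.54 ± 0.60, adjusted p = 0.472). With only the groups compared, Sox2 fell by day 6 (log2 -0.74, adjusted p = 0.0100). By days 6 and 8, 37.3% and 52.4% of all 17818 genes were called in either direction, against the 4 and 5 of 6.

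Sox2ot, which overlaps Sox2, rose in WT (log2 3.16 ± 0.97 by day 8, adjusted p = 0.00792), to 19.9, 9.10 and 14.4 CPM. Feeder markers fell in WT cultures, 12 of 14 by day 6 and 12 of 14 by day 8, with a summed level of 1552 to 5509 CPM in ESCs and 448 to 647 CPM on day 8; their part in the members' changes was not tested.

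The 2 ways of differentiating WT cells were compared over the days they share. From ESCs to day 6, the neural change was lower than the embryoid body change, with a log2 difference of -5.37 ± 0.74 for Pou5f1 (adjusted p = 0.000324), -5.003 ± 1.29 for Utf1 (adjusted p = 0.0287) and -2.95 ± 0.77 for Nanog (adjusted p = 0.0303), 3 of 6 genes against 5.81% of 16941 genes. Sall4 (log2 -1.49 ± 0.62, adjusted p = 0.197), Lin28a (-1.07 ± 0.39, adjusted p = 0.129) and Sox2 (-0.18 ± 0.43, adjusted p = 0.899) did not pass. Pou5f1 kept its call without any single library. Nanog missed it without any of 9 of the 12 libraries (adjusted p 0.0538 to 0.0758: embryoid body ESC replicates 1, 2 and 3, embryoid body day 6 replicates 2 and 3, neural ESC replicates 2 and 3, neural day 6 replicates 1 and 2). Utf1 missed it without any of 6 (0.0516 to 0.0747: embryoid body ESC replicate 3, embryoid body day 6 replicates 2 and 3, neural ESC replicate 1, neural day 6 replicates 1 and 2). With no filter on low counts, Nanog (0.0583) and Utf1 (0.0848) missed it too. Without the embryoid body libraries numbered 1 all 3 passed, with adjusted p of 0.00108 for Pou5f1, 0.0125 for Nanog and 0.000326 for Utf1. Medium, time of sampling and sequencing table were not varied separately and cannot be told apart.

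**Figure D3:**
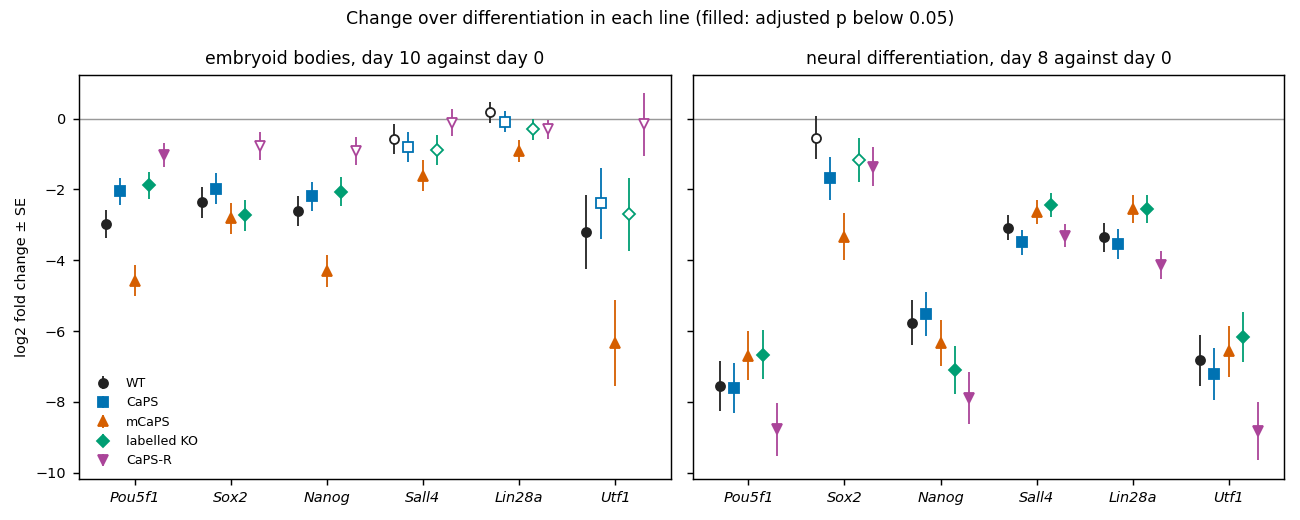
Log2 fold change of each gene from ESCs to the last day in every line, in embryoid bodies (day 10) and neural cultures (day 8). Symbols show the estimate, bars the SE, filled symbols an adjusted p below 0.05; on neural day 8 Pou5f1, Nanog, Sall4, Lin28a and Utf1 are filled in all 5 lines, and Sox2 is open in WT (-0.54) and the line labelled KO (-1.17).

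The loss of Pou5f1, Nanog, Sall4 and Utf1 in neural culture was shared by all 5 lines on both days. By day 8, the log2 change of Pou5f1 lay between -6.67 (line labelled KO) and -8.78 (CaPS-R), that of Nanog between -5.52 (CaPS) and -7.89 (CaPS-R), that of Utf1 between -6.17 (line labelled KO) and -8.82 (CaPS-R) and that of Sall4 between -2.45 (line labelled KO) and -3.49 (CaPS). Lin28a did not pass on day 6 in 4 lines and fell in CaPS-R (log2 -1.11 ± 0.35, adjusted p = 0.0105), and by day 8 it fell in all 5, with log2 changes from -2.55 (mCaPS and the line labelled KO) to -4.15 (CaPS-R). Sall4 on day 6 in the line labelled KO (log2 -1.06 ± 0.32, adjusted p = 0.0153) was lost without ESC replicate 3 (adjusted p = 0.128) or day 6 replicate 1 (adjusted p = 0.0587).

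Sox2 was the 1 member whose change in neural culture differed from that of WT in a line by the test of the difference, in mCaPS. In CaPS it was at 299, 346 and 304 CPM in ESCs, at 128, 38.3 and 57.7 CPM on day 6 (log2 -2.08 ± 0.63, adjusted p = 0.00970) and at 192, 25.0 and 76.6 CPM on day 8 (log2 -1.69 ± 0.62, adjusted p = 0.0250). The 3 day 8 libraries spread over almost the whole range between WT and mCaPS. Without day 8 replicate 1, the highest, the change was -2.72 (adjusted p = 0.00246), and without replicate 2, the lowest, it was -1.23 (adjusted p = 0.122). The day 8 call was also lost without replicate 3 (adjusted p = 0.0738) or ESC replicate 2 (0.0531) and with only the groups compared (0.0572), and the day 6 call without replicate 2 (0.0596). In mCaPS, Sox2 was at 195, 297 and 195 CPM in ESCs, at 10.4, 74.3 and 16 CPM on day 6 (log2 -2.77 ± 0.64, adjusted p = 0.00120) and at 17.0, 42.0 and 8.66 CPM on day 8 (log2 -3.34 ± 0.66, adjusted p = 0.000173). Every later mCaPS library lay below every mCaPS ESC library.

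In the line labelled KO, Sox2 was at 146, 283 and 283 CPM in ESCs and at 142, 130 and 44.9 CPM on day 8, which did not pass (log2 -1.17 ± 0.61, adjusted p = 0.124). On day 6 it passed with only the groups compared (log2 -0.81, adjusted p = 0.0346, against -0.82 and 0.326 over all groups), as did Lin28a (-0.61, adjusted p = 0.0251, against -0.62 and 0.229). CaPS-R went from 522, 544 and 547 CPM to 276, 167 and 166 CPM on day 6 (log2 -1.40 ± 0.56, adjusted p = 0.0424) and to 171, 243 and 215 CPM on day 8 (log2 -1.36 ± 0.56, adjusted p = 0.0416). The day 6 call was lost without any of 5 of its 6 libraries (0.0705 to 0.123; all but day 6 replicate 1), and the day 8 call without any of the 6 (0.0598 to 0.120). Both were lost with no filter on low counts (0.0653 and 0.0603). The counts of genes that fell by days 6 and 8 were 5 and 6 of 6 in CaPS, against 39.2% and 48.6% of all genes called. They were 5 and 6 in mCaPS (39.2% and 46.2%), 4 and 5 in the line labelled KO (28.9% and 43.3%) and 6 and 6 in CaPS-R (41.6% and 50.7%).

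Against WT, Sox2 was lower in mCaPS on both neural days. On day 8 the mCaPS libraries had 8.66 to 42.0 CPM and the WT libraries 169 to 266 CPM, without overlap (log2 -3.28 ± 0.66, adjusted p = 0.00187). This call held without any single library and in every alternative run. On day 6 the difference was -2.49 ± 0.64 (adjusted p = 0.0362). It was -3.83 (adjusted p = 0.00547) without mCaPS replicate 2, and the call was lost without mCaPS replicate 1 (0.192), mCaPS replicate 3 (0.250) or WT replicate 1 (0.118), 2 (0.108) or 3 (0.0663), with no filter on low counts (0.0585) and with only the groups compared (0.0717). In ESCs it did not pass (log2 -0.48 ± 0.60, adjusted p = 0.769). The change from ESCs to day 8 was lower than in WT (log2 difference -2.80 ± 0.87, adjusted p = 0.0393), the 1 call of 6 against 9.49% of all genes.

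That difference of changes was lost without any of 9 of its 12 libraries (0.0576 to 0.115), among them mCaPS day 8 replicates 1 (0.0813) and 3 (0.115), mCaPS ESC replicates 1 (0.0585) and 2 (0.0919), WT day 8 replicates 1 (0.0903) and 3 (0.0576) and the WT ESC replicates 1 (0.0781), 2 (0.0763) and 3 (0.0589). It was also lost with no filter on low counts (0.0651). Sox2ot was lower in mCaPS as well, at 0.544, 2.04 and 0.0647 CPM on day 8 (log2 -4.01 ± 1.01, adjusted p = 0.00766). Overlapping reads of the 2 genes cannot be told apart here.

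Lin28a was higher in mCaPS on neural day 8, at 47.6, 180 and 90.0 CPM against 23.2, 57.5 and 50.3 CPM in WT (log2 1.28 ± 0.38, adjusted p = 0.0210). The groups overlapped. The call was lost without mCaPS replicate 2 (log2 0.68, adjusted p = 0.212) or WT replicate 1 (log2 1.01, adjusted p = 0.124), and with only the groups compared (0.136). In mCaPS against WT, the members called were 0 of 6 in ESCs (0 by DESeq2 and 0 at an unadjusted p below 0.05), 1 on day 6 and 2 on day 8, where 3.02%, 2.22% and 18.5% of all genes were called. The line labelled KO had Lin28a at 56.1, 69.8 and 158 CPM on day 8, which did not pass (log2 1.12 ± 0.38, adjusted p = 0.328).

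Several marker lists moved with Sox2 in mCaPS on neural day 8, and their part in its difference was not tested. Of 12 neural progenitor markers, 7 were lower than in WT and none higher (median log2 -2.31, all genes 0). Their summed level was 800 to 975 CPM in mCaPS, 821 to 2679 CPM in CaPS and 2314 to 2857 CPM in WT. Of 10 neuron markers 9 were lower (median log2 -3.78), with a summed level of 16.4 to 120 CPM against 989 to 1915 CPM. Endoderm markers were higher, 4 of 8, with 361 to 756 CPM against 25.8 to 93.8 CPM, and so were 5 of 11 mesoderm and heart markers (106 to 159 CPM against 7.36 to 21.4 CPM). Feeder markers were higher for 5 of 14 and lower for none, at 1144 to 3419 CPM against 448 to 647 CPM. This list split over time in mCaPS: from ESCs to day 8, 6 of 14 rose and 4 fell. Whether feeder cells or differentiating cells made these transcripts was not tested. No marker of these lists was at 0 in all 3 libraries of either line.

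The 2 CaPS libraries with the lowest Sox2 on day 8, replicates 2 and 3, also had the higher endoderm sums (524 and 398 CPM, against 22.1 CPM in replicate 1) and the lower neural progenitor sums (821 and 1381 CPM, against 2679 CPM). Mean Sox2 in CaPS on day 8 was 97.8 ± 85.4 CPM (SD, n = 3). The difference from WT (log2 -1.17 ± 0.61, adjusted p = 0.623) did not pass. CaPS gave no call among 18 neural results against WT by edgeR or DESeq2, and 1 had an unadjusted p below 0.05 (Sox2 on day 6, log2 -1.33 ± 0.61, adjusted p = 0.722). The pairing of CaPS and WT by replicate number is not used in these fits. With the replicate block no member was called either, and the shares of all genes given next are without it. The share of all genes called by edgeR was 0% in ESCs, 0% on day 6 and 0.0112% on day 8. Unadjusted p below 0.05 was reached by 639 genes in ESCs and 1175 on day 6, with 8 and 117 calls by DESeq2. Its change from ESCs to day 8, set against that of WT, gave none of 6 by edgeR or DESeq2 or at an unadjusted p below 0.05 (0% of all genes called, with 887 at an unadjusted p below 0.05 and 7 called by DESeq2).

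CaPS and mCaPS were not separated by any member in neural culture by edgeR, with shares of all genes called of 2.10%, 0.0112% and 1.59% in ESCs and on days 6 and 8. Of 18 results 2 had an unadjusted p below 0.05. On day 8, Sox2 had a log2 difference of 2.11 ± 0.63, CaPS against mCaPS (adjusted p = 0.0752), and Lin28a had a log2 difference of -1.37 ± 0.38 (adjusted p = 0.0598). DESeq2 called 2. The line labelled KO gave no call against WT by edgeR or DESeq2 among 18 neural results, where 5.52%, 0.0281% and 0.0505% of all genes were called, and 2 had an unadjusted p below 0.05. Its change to day 8 gave none of 6 by either tool or at an unadjusted p below 0.05 (0.337% of all genes). Feeder markers differed between these ESCs: 12 of 14 were lower in the line labelled KO than in WT and 10 of 14 in mCaPS, with summed levels of 1049 to 1468 and 1053 to 1294 CPM against 1552 to 5509 CPM. Their part in comparisons with day 0 was not tested.

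CaPS-R was lower in Nanog and Utf1 at the end of neural culture, and its ESCs already lay below those of WT. In neural ESCs of the joint scaling, Nanog was at 175, 148 and 102 CPM in CaPS-R and at 207, 239 and 220 CPM in WT. Utf1 was at 156, 171 and 163 CPM there, against 384, 268 and 220 CPM. Neither difference in ESCs passed over all groups. Nanog was at 7.74, 1.94 and 1.83 CPM on day 6, from 144, 22 and 8 counts. WT in the same scaling had 12.1, 23.8 and 25.3 CPM, from 448, 1026 and 802 counts (log2 -2.28 ± 0.58, adjusted p = 0.00568). CaPS-R replicate 3 of day 6 had the highest share of Rn45s among the CaPS-R neural libraries, 80.5%. On day 8 Nanog was at 0.811, 0.819 and 0.271 CPM, from 10, 18 and 8 counts. WT had 1.42, 2.72 and 7.26 CPM, from 50, 110 and 208 counts (log2 -2.66 ± 0.68, adjusted p = 0.00557). Utf1 on day 8 was at 0.811, 0 and 0.406 CPM, from 10, 0 and 12 counts, against 1.37, 1.73 and 4.12 CPM (log2 -2.73 ± 0.78, adjusted p = 0.0143). The 0 counts of replicate 2 allow up to 3 counts, or 0.137 CPM, from counting error alone, if counts are independent. In the CaPS-R neural libraries 66.5% to 81.5% of counts between 1 and 20 were even. If counts came in pairs the bound would be higher, which was not tested. The groups did not overlap in any of these comparisons, and all levels on days 6 and 8 are low.

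These calls depend on single libraries and on the fit. Nanog on day 6 was -3.43 (adjusted p = 0.00114) without CaPS-R replicate 1 and lost its call without replicate 2 (0.0605). On day 8 Nanog lost it without CaPS-R replicate 3 (0.0641) or WT replicate 3 (log2 -1.80, adjusted p = 0.0955), and Utf1 without CaPS-R replicate 2 (0.0960), CaPS-R replicate 3 (0.0613) or WT replicate 3 (0.106). With only the groups compared, the day 8 calls of Nanog (0.0501) and Utf1 (0.128) were lost too. In ESCs Sox2 (0.00570) and Lin28a (0.0172) then passed as higher in CaPS-R, and Utf1 (0.0345) as lower. Sox2 differed from WT by 0.12 ± 0.55 on day 6 and 0.03 ± 0.55 on day 8, and neither passed. Members called against WT were 0, 1 and 2 of 6 in ESCs and on days 6 and 8, where 22.1%, 14.6% and 14% of all 15334 genes were called. Over the 3 days, 7 of 18 had an unadjusted p below 0.05 and DESeq2 called 4. The change to day 8 gave no call by edgeR or DESeq2 and 1 of 6 at an unadjusted p below 0.05, against 0.691% of all genes. In ESCs all 14 feeder markers were lower in CaPS-R than in WT (693 to 1041 CPM summed), and their part in these comparisons was not tested.

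**Figure D4:**
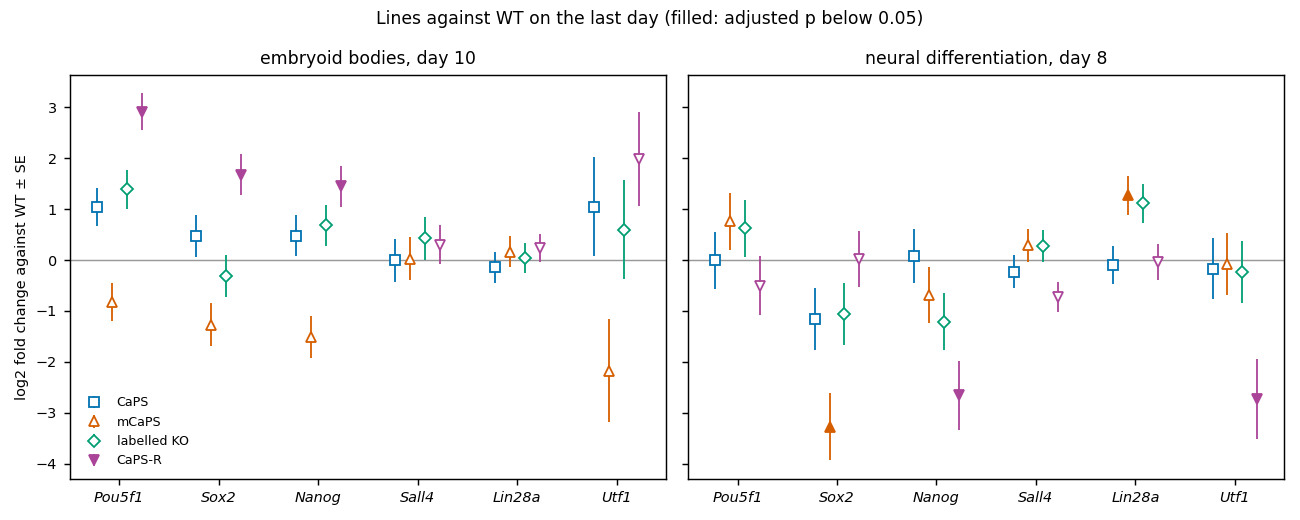
Log2 fold change of each line against WT on the last day, embryoid bodies (day 10, left) and neural cultures (day 8, right). Symbols show the estimate, bars the SE, filled symbols an adjusted p below 0.05; filled are Pou5f1, Sox2 and Nanog in CaPS-R on the left, and Sox2 and Lin28a in mCaPS and Nanog and Utf1 in CaPS-R on the right.

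Other genes of the pluripotency network were read from a list of 24. Of these, 23 fell in WT embryoid bodies by day 10 (median log2 -3.70, all genes -0.02), among them Dppa2 (log2 -5.20 ± 0.84), a factor of early embryonic chromatin, and the orphan nuclear receptor Nr0b1 (log2 -5.12 ± 0.93). In WT neural cultures 23 of 24 fell by day 6 (median -3.72, all genes 0.01) and 24 by day 8 (median -5.89, all genes 0.05), among them the growth factor Fgf4 (log2 -8.55) and the Nodal co-receptor Tdgf1 (log2 -7.99). The neural change to day 6 was lower than the embryoid body change for 12 of 24 and higher for none (median -2.42, all genes 0.03). On embryoid body day 10, 14 of 24 were higher in CaPS than in mCaPS (median 2.65, all genes 0.01). In CaPS-R, 15 of 23 were higher than in WT (median 2.57, all genes -0.08). On neural day 8, 6 of 23 were lower in CaPS-R than in WT, and 5 of 24 were higher and 1 lower in mCaPS. The share of all genes called in each of these comparisons is given above, and the list counts were not tested against it.

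Relatives of the members were read from further lists. Their counts were not tested against the shares of all genes called in the same comparisons, which are given above. Among 13 genes of the LIN28 and let-7 axis, 5 rose and 1 fell in WT embryoid bodies by day 10 (median 0.61), including the uridyl transferase Tut4 (log2 1.47) and the let-7 target Arid3b (1.46). On WT neural day 8, 6 rose, again with Tut4 (1.82), and 4 fell, with Trim71 (-2.69), a let-7 target of stem cells. Of the SALL, SOXB1 and POU3 relatives, 2 of 12 rose in WT embryoid bodies, Sox14 (log2 3.36 ± 1.18, from 0.0446 to 0.408 CPM) and Sall2 (1.59 ± 0.40). In WT neural cultures 7 of 11 rose and 2 fell by day 8 (median 3.003, all genes 0.05), led by the neural POU factors Pou3f2 (7.72 ± 1.33) and Pou3f4 (6.88 ± 1.03). In mCaPS on neural day 8, 7 of these 11 were lower than in WT and 1 higher (median -2.79). Sox1 and Sox3 are on this list and on that of neural progenitors.

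Markers of the cells that formed were also read in WT. These counts, too, were not tested against the shares of all genes called over the same days, given above. By neural day 8, 11 of 12 neural progenitor markers rose, with Hes5 (log2 6.50) and Pax3 (6.34) changing most, and 8 of 10 neuron markers rose, with Neurog2 (7.93) and Dcx (7.76). In embryoid bodies 4 of 12 neural progenitor markers rose by day 10, with Pax3 (5.80) and Irx3 (4.57). There 1 neuron marker of 10, Isl1 (5.54), rose, and 3 fell, including Neurod1 (-3.58). All 8 endoderm markers rose by embryoid body day 10, with Ttr (8.31) and Afp (7.87), and 5 of 8 by neural day 8, with Afp (5.22) and Sox17 (4.33). Of the mesoderm and heart markers, 11 of 12 rose in embryoid bodies, with Hand1 and Gata5 (both 7.53), and 2 rose and 3 fell of 11 in neural cultures, with T (-7.08) and Gata5 (6.16). Feeder markers that fell most were Ccl7 (-9.35) and Mmp3 (-8.71) in embryoid bodies and Mmp3 (-8.98) and S100a4 (-8.19) in neural cultures. Of 10 germ cell markers, 7 fell in embryoid bodies, with Dppa3 (-3.58) and Ddx4 (-2.67), and 6 fell and 1 rose in neural cultures, with Dppa3 (-4.00) and Ddx4 (-3.62). Dppa3 is also on the list of the pluripotency network.

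Across the 24 group means of WT, CaPS, mCaPS and the line labelled KO in both series, the levels of Pou5f1, Nanog and Utf1 (log2 CPM) ran together, with Pearson's r of 0.972 for Pou5f1 and Nanog and 0.975 for Pou5f1 and Utf1. Sall4 had 0.938 to Pou5f1, 0.940 to Nanog, 0.913 to Utf1 and 0.926 to Lin28a. Sox2 followed the others least, with 0.628 to Pou5f1, 0.544 to Sall4 and 0.295 to Lin28a. These are descriptions over groups that share days and libraries. By Pearson's r among 17345 genes, the patterns most like Pou5f1 were those of L1td1 (0.989), Cbr3 (0.989) and Slc27a2 (0.989). For Utf1 they were L1td1 (0.990), Gart (0.986) and Slc27a2 (0.985). Nearest to Nanog were Ttc27 (0.987), D7Ertd143e (0.987) and Gart (0.985). Sall4 was most like Trim71 (0.975), Zscan10 (0.967) and Slc30a2 (0.960), and Lin28a most like Foxh1 (0.947), Pm20d1 (0.944) and Trim71 (0.941). For Sox2 the nearest were Acot7 (0.962), Spire2 (0.942) and Dlgap3 (0.930). These names depend on the measure. By Spearman's rank correlation, only Sox2 kept its nearest gene (Acot7, 0.964), and Pou5f1 and Sall4 were nearest to each other (0.986).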

How the data were processed

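RNA was total RNA after ribosomal depletion, with directional cDNA synthesis, per the labels' protocols. The authors deposited raw read counts per gene in whole-series tables. The submitters' processing notes name cutadapt 1.14, STAR 2.7.0, featureCounts 1.6.3, HOMER 4.10.4, edgeR and mm10, without role or order. Columns were assigned to samples by name; 9 columns matched no sample and were not used. Gene names turned into dates were dropped (23 in the embryoid body table, 0 in the neural table and 22 in each CaPS-R table). The 2 CaPS-R tables were read only in part and were joined over 20823 (embryoid body) and 20930 (neural) shared genes.

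Counts were filtered with filterByExpr, scaled with TMM and tested with the quasi-likelihood test of edgeR 4.0.16 (robust, two-sided) in R 4.3.3 with limma 3.58.1, with Benjamini-Hochberg adjustment over all genes tested and a threshold of 0.05. One fit per series held 36 libraries in 12 groups, the CaPS-R fits 45 in 15 groups, and the comparison of series 18 WT libraries. The SE is the unshrunk log2 fold change divided by the square root of F. Alternatives were DESeq2 1.42.0, RLE size factors, no filter, Rn45s left out, only the groups compared, the replicate block, each library left out, and the 6 embryoid body libraries numbered 1 of WT and CaPS left out. The scripts were tested on simulated counts. No pair of libraries among 2556 held identical values.

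Same-numbered samples deviated together (all 3 correlations above 0.1) in 11 of 50 comparisons, with correlations from -0.351 to 0.749 overall. The numbers were therefore read as pairing samples with a replicate block in WT and CaPS over time in embryoid bodies, in the line labelled KO at embryoid body day 10, and in CaPS against WT. There the block gave adjusted p of 0.00387 for Utf1 in CaPS, and 0.0271 for Utf1 and 0.00326 for Sall4 in the line labelled KO. In that line the day 10 correlations (0.176, 0.122 and 0.108) lie just above the cut of 0.1. Its day 6 correlations (0.138, 0.0320 and 0.0879) did not meet the rule.

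The members and lists were chosen with earlier results of these data known. Named besides the 6 members are the 3 genes with the highest Pearson correlation to each over 24 groups (prior count 2), the 2 members of each list with the largest change among those that passed in WT at the last day of a series, Sox2ot, Cbx7 and Rn45s; Gapdh was added after its values were seen. Lists were pluripotency partners, the LIN28 and let-7 axis, SALL, SOXB1 and POU3 relatives, and markers of neural progenitors, neurons, feeder fibroblasts, germ cells, endoderm and mesoderm with heart. Some lists share genes, so their counts are not separate readings: Dppa3 (pluripotency partners and germ cells), and Sox1 and Sox3 (relatives and neural progenitors).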

Additional observations from a re-analysis of the deposited data

Results flagged for a closer look

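The following 4 results differed between groups by a test of the difference itself. The change of Sox2 from ESCs to neural day 8 was lower in mCaPS than in WT (log2 difference -2.80, adjusted p = 0.0393). In WT, the change from ESCs to day 6 was lower in neural culture than in embryoid bodies for Pou5f1 (log2 difference -5.37, adjusted p = 0.000324), Utf1 (-5.003, adjusted p = 0.0287) and Nanog (-2.95, adjusted p = 0.0303). Only the Pou5f1 call held in every alternative. Those of Sox2, Utf1 and Nanog were lost with no filter on low counts and without any of several single libraries, as given above. Groups of 3 libraries were not searched for single outlying samples.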

How the results depend on the processing

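Of the 354 results of the 6 genes (59 comparisons each), 87 were called and 66 of these kept their call in every alternative. No result changed direction past the threshold. DESeq2 kept 344 and added 10 calls, RLE size factors and leaving out Rn45s each kept 353 and added 1, and no filter kept 348 and lost 6. Using only the groups compared lost 10 and added 16, and the replicate block lost 7 and added 17. Of 2448 values with 1 library left out, 77 lost and 13 gained a call. Without the 6 libraries numbered 1, 168 of 180 kept their side, 1 lost and 11 gained.

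Counts of calls moved by over 1.5 times as follows, with the cause not tested. DESeq2 gave 5 in place of 3 for CaPS against mCaPS in embryoid bodies, 2 in place of 0 in neural cultures, 2 in place of 1 for mCaPS and 1 in place of 0 for the line labelled KO against WT in embryoid bodies, and 1 in place of 0 for the CaPS-R change relative to WT. With only the groups compared, mCaPS against WT gave 0 in place of 1 in embryoid bodies and 1 in place of 3 in neural cultures, and embryoid body time gave 3 in place of 1 in CaPS-R and 8 in place of 4 in the line labelled KO. The replicate block gave 0 for mCaPS against WT in embryoid bodies, 5 in place of 3 for CaPS-R against WT in neural cultures, and 3 and 8 for embryoid body time in CaPS-R and the line labelled KO. For CaPS-R against WT in neural cultures the block lost all 3 reported calls, Nanog on days 6 (adjusted p = 0.0893) and 8 (0.217) and Utf1 on day 8 (0.229), and its 5 calls lie in ESCs, Sox2 (0.00865), Pou5f1 (0.0230), Lin28a (0.0275), Sall4 (0.0452) and Utf1 (0.0478). The block also lost Nanog in CaPS-R against WT on embryoid body day 10 (0.161), Nanog in CaPS against mCaPS on that day (0.0529), and Lin28a in mCaPS over embryoid body time (0.116) and against WT in ESCs (0.951). It added Nanog (0.0114) and Sall4 (0.00647) at embryoid body day 6 in the line labelled KO, Nanog (0.00211) and Sall4 (0.0364) in CaPS-R, Pou5f1 in CaPS-R against WT on that day (0.0153), and on neural day 6 Sox2 in WT (0.0192) and in the line labelled KO (0.0106) and Lin28a in mCaPS (0.0319) and in the line labelled KO (0.0375). In none of these comparisons did the numbers meet the rule for pairing the samples, so the lost calls are not read as weaker effects. No filter gave 0 in place of 1 for the mCaPS change in neural cultures and 1 in place of 3 for neural against embryoid. Without the libraries numbered 1, embryoid body time gave 3 in CaPS-R, 6 in place of 3 in CaPS and 7 in the line labelled KO. With each library left out in turn, calls ranged from 1 to 4 (CaPS against mCaPS, embryoid bodies), 0 to 1 (neural), 2 to 3 and 1 to 4 (CaPS-R against WT, embryoid bodies and neural), 0 to 1 (change relative to WT of CaPS-R in embryoid bodies and of mCaPS in neural cultures), 0 to 1 (line labelled KO against WT, embryoid bodies), 0 to 2 and 2 to 3 (mCaPS against WT, embryoid bodies and neural), 0 to 1 (CaPS-R over embryoid body time) and 1 to 3 (neural against embryoid). Groups of 3 limit precision, and counts of Nanog and Utf1 on neural day 8 are few.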
